A study of Mus musculus with 6 samples.

Results

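The vacuolar proton pump (V-ATPase) and its assembly factor gene Vma21 were followed in RNA sequencing of mouse primary peritoneal macrophages exposed to oxidised low-density lipoprotein (oxLDL). The group holds 32 genes: Vma21, chosen by its lower count in the KO than in the WT libraries analysed here, and subunits of the pump, its accessory and assembly proteins and the RAVE complex, chosen by name as the machine Vma21 helps to build. Of these, 28 have a row under that symbol among the 27240 genes of the deposited table, and 26 passed the filter on low counts, out of 16239 genes tested. All 6 libraries were labelled oxLDL, with 3 of genotype WT and 3 of genotype KO, here taken as wild type and knockout. The series title names DCLK1, while the labels give no allele, driver, age or number of animals and do not say whether replicates came from separate animals, so each p-value speaks of the scatter among these libraries and possibly of technical scatter alone. Cells without oxLDL were not analysed here.

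The V-ATPase is a rotary motor that spends ATP to move protons into lysosomes, endosomes and phagosomes. Its cytosolic V1 sector splits ATP, and its membrane V0 sector carries the protons. In macrophages the acid it makes lets lysosomal enzymes digest what the cell has taken up, including modified lipoproteins. Vma21 is a small protein of the endoplasmic reticulum that escorts V0 while it is put together, with Tmem199 and Ccdc115 as further assembly factors. The RAVE complex (Dmxl1, Dmxl2 and Wdr7 in mouse) helps V1 join V0. Many pump genes are known targets of the transcription factor TFEB and its relatives, which bind a short palindrome, the CLEAR element, in gene promoters.

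The promoters were searched for that palindrome and for shorter cores of it, a sequence feature that did not itself enter the choice of genes. Since many pump genes are known targets of TFEB, a share above that of all genes could follow from choosing pump genes. RefSeq promoter windows (GRCm38.p6, 250 bases before to 50 bases after a gene start) were matched by symbol for 23 of the 32 genes. The letters TCACGTGA, read the same on both strands and containing the shorter CACGTG, occurred in the windows of 4 of these 23 genes (17.4%), against 1.12% of 27025 genes with a window. CACGTG alone occurred in 6 of the 23 (26.1%), adding Atp6v0b and Ccdc115, against 8.09% of all genes. The whole palindrome of the CLEAR element, with a G before and a C after these letters, occurred in none of the 23, against 0.370% of all genes. The matches below are therefore to a shorter core of it, and are shown because they put Vma21 beside 3 subunit genes. Capitals mark TCACGTGA, and each line runs 5′ to 3′ on the strand of the gene.
Vma21: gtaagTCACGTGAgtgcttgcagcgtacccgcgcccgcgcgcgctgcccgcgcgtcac
Atp6v0d1: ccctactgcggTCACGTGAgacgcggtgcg
Atp6v0e: tagcgcgccgaTCACGTGAgcctctgttga
Atp6v1a: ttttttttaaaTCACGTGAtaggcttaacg
The Vma21 stretch (chrX:71816700-71816757, plus strand) ends at the base before the second of its 2 RefSeq starts, so its match spans positions -53 to -46. That match lies downstream of the first start. In the Atp6v1a stretch (chr16:44139373-44139402, minus strand) the match lies at -132 to -125. In the Atp6v0d1 stretch (chr8:105566050-105566079, minus strand) the match spans the start itself, from -4 to 4. In the Atp6v0e stretch (chr17:26676387-26676416, plus strand) the match lies just inside the transcript, at 3 to 10. A match describes these letters and does not show that a factor binds there.

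Total counts per library lay between 68053008 and 79090732. Dclk1 was at 7.13 ± 0.383 CPM (the library-size-scaled count unit used below, SD, n = 3) in WT and 5.53 ± 0.370 CPM in KO libraries (edgeR adjusted p = 0.332), so it checks the genotype labels only weakly. All 7 macrophage markers were at 1 CPM or more, and their sum was lower in KO (12535 to 12676 CPM) than in WT libraries (20284 to 21534 CPM). Lyz2, at 16349 ± 652 CPM in WT and 7969.6 ± 42.0 CPM in KO libraries (SD, n = 3 each), was the only 1 of the 7 that edgeR called. Its difference in means was slightly larger than that of the sum. Cd68 was at 1994 and 1993 CPM, Adgre1, Mertk and Fcgr1 overlapped between groups, Csf1r was lower in each KO library (1021 and 965 CPM) and Itgam was higher in each (327 and 513 CPM). Summed markers of other cell types were lower in KO libraries for T cells (8.12 to 9.10 CPM in WT and 4.95 to 6.13 CPM in KO libraries) and mast cells (3.93 to 4.59 and 2.50 to 3.58 CPM). So were those of neutrophils (71.2 to 75.5 and 66.3 to 68.0 CPM) and of fibroblasts and mesothelium (76.9 to 83.1 and 60.7 to 72.1 CPM). None of these markers was called by edgeR, and 8.89% of all genes tested were lower in each KO library. Taken singly, every mast cell marker overlapped between groups, as did Cd3e, Cd3d and all fibroblast and mesothelial markers but Dcn. Cd3g, Lck and Dcn were lower in each KO library, and DESeq2 called Cd3g and Dcn (adjusted p = 0.032 and 0.0010). Nearly all of the neutrophil sum came from Csf3r (48.7 CPM in WT and 45.4 CPM in KO libraries) and S100a8 (24.6 and 21.6 CPM). S100a9 went the other way near the floor, with 0 to 4 counts in WT and 8 to 15 counts in KO libraries. The neutrophil marker Ly6g was at 0 in all 6 libraries, so this sum measures neutrophils only weakly. Summed B cell markers overlapped between groups (0.706 to 1.08 and 1.08 to 2.39 CPM). Fewer cells of a type and less RNA per cell cannot be told apart in bulk samples, and the part of other cells in the results below was not tested.

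Nearly every pump gene was well expressed, and the levels fell into tiers. The deposited FPKM values, which divide counts by gene length and library size, allow levels of different genes to be compared. The highest was Atp6v1g1, a peripheral stalk subunit, at 294 ± 4.04 FPKM (SD, n = 3) in WT and 299 ± 10.0 FPKM in KO libraries. Atp6v0d2, a stalk subunit of V0 known from osteoclasts and macrophages, followed at 259 ± 12.5 and 257 ± 0.545 FPKM. Atp6v0c, the main subunit of the proton-carrying ring, was at 216 ± 14.3 and 239 ± 30.8 FPKM. It lay below Atp6v0d2 in every library but KO replicate 1 (274 against 257 FPKM). The catalytic subunit gene Atp6v1a (181 FPKM in WT), Atp6v0d1 (175 FPKM) and the nucleotide-binding Atp6v1b2 (161 FPKM) came next.

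Assembly and RAVE genes, with Atp6v0a2 (9.89 FPKM in WT) among them, lay lowest among the tested genes other than Atp6v1g2. WT means were 17.4 FPKM for Tmem199, 10.9 FPKM for Wdr7, 10.4 FPKM for Dmxl2, 10.2 FPKM for Ccdc115, 6.23 FPKM for Vma21 and 5.48 FPKM for Dmxl1. These values depend on the length used. For the 25 genes of the group with at least 10 CPM, the length implied by counts, FPKM and total count was 1.11 to 1.12 times all annotated exonic bases of the gene in every library. The FPKM values therefore hold the same information as the counts, and a gene with long alternative exons reads low. Vma21 has 7303 exonic bases and a longest transcript of 4652, and scaled to the longest transcript its WT level was 10.9 CPM per kilobase. On that scale Atp6v1b2 ranked first (338 CPM per kilobase), then Atp6v0b (335) and Atp6v1g1 (328), so the order at the top is not fixed by these data.

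**Figure D1:**
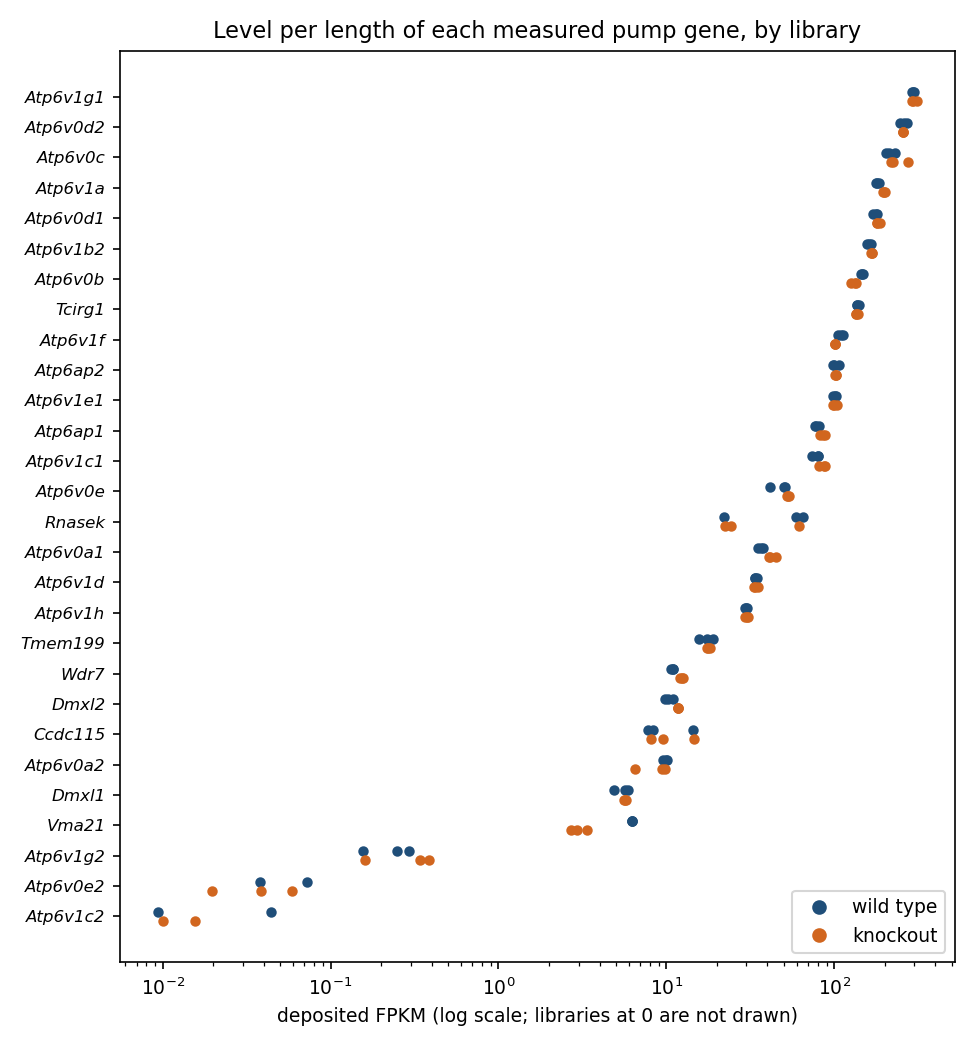
Deposited FPKM of the 28 genes that have a row, on a logarithmic horizontal axis, with 1 point per library and genes ordered by their mean. Levels run from 0.00855 FPKM (Atp6v1c2, KO mean) to 299 FPKM (Atp6v1g1, KO mean), and Vma21 is a gene whose WT and KO points separate.

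Paralogs of several subunits were close to absent. Atp6v0e2 had 0, 8 and 16 counts in WT and 8, 12 and 5 counts in KO libraries. Atp6v1c2 had 2, 8 and 0 counts in WT and 3, 2 and 0 counts in KO libraries, where a count of 0 allows up to 3 counts (counting error only). Both were below the filter and were not tested. Atp6v1g2, the neuronal form of subunit G, was tested but lay at 0.457 to 0.839 CPM in WT and 0.451 to 1.11 CPM in KO libraries, and it overlaps Nfkbil1 on the other strand by 144 exonic bases. The ubiquitous partners of these genes supplied nearly all of each subunit, with 99.9% of FPKM for Atp6v0e and Atp6v1g1 in both groups. Atp6v0a4, Atp6v1b1, Atp6v1e2 and Atp6v1g3, known mainly from kidney, testis and other specialised cells, are the 4 genes with no row under those symbols and were not analysed here.

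The comparison of genotypes asks how the pump's transcripts differ when oxLDL-exposed macrophages carry the KO rather than the WT genotype. Vma21, chosen by this contrast, stood at 48.0% of its WT level. Of the other 25 tested genes 23 had a fitted log2 fold change within 0.25 of 0. Most of all genes tested did so too, as their median absolute value was 0.132. Counted over the group, 1 of 26 tested genes, Vma21, passed an edgeR adjusted p under 0.05, against 0.0677% of all genes tested (0.0431% lower and 0.0246% higher in KO). That contrast chose the gene, so nothing is read from the count. limma on log2(FPKM + 1) called Vma21 and no other of the group, against 0.0765% of the genes it tested. DESeq2 called 4, Vma21, Wdr7, Atp6v0a1 and Atp6v0b, against 3.57% of the genes it gave an adjusted p.

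Without the adjustment the counts were larger. At an unadjusted edgeR p under 0.05 there were 9 genes of the 26, against 10.4% of all genes tested, with 6 higher (background 4.73%) and 3 lower (background 5.71%) in KO. Groups did not overlap for 10 of the 26, against 17.6% of all genes tested, with 7 higher (background 8.68%) and 3 lower (background 8.89%). Vma21, chosen by this same contrast, is among the 9, among the 10 and among the 3 lower genes of each count. Its part in these counts is therefore not read as a result. All 9 and all 10 were among the 25 genes of at least 10 CPM. Of all genes above that floor 14.6% had such a p and 21.9% had groups that did not overlap. Replicates of these 25 genes lay close together, with a median coefficient of variation of 3.31% in WT and 2.47% in KO libraries. All genes above that floor had 5.52% and 5.04%. The 25 genes were not matched in level to the others above the floor, and the part of level in these contrasts was not tested.

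Vma21 (ENSMUSG00000073131, chrX:71815924-71839757, plus strand, coordinates as deposited and matching the GRCm38 annotation) was lower in all 3 KO libraries. It had 3449, 3806 and 3987 counts in WT and 1783, 1610 and 2004 counts in KO libraries. Scaled for library size these were 50.7, 51.2 and 50.7 CPM and 23.8, 22.0 and 27.4 CPM, so the groups did not overlap and the lowest WT value was well above the highest KO value. The deposited FPKM values were 6.23, 6.23 and 6.22 in WT and 2.94, 2.71 and 3.38 in KO libraries. Means were 50.9 ± 0.269 and 24.4 ± 2.73 CPM (SD, n = 3 each), a KO level of 48.0% of WT.

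The edgeR fit gave Vma21 a log2 fold change of -1.06 (SE 0.0849, 95% interval -1.26 to -0.86, adjusted p = 0.0085). The same value in these libraries had brought the gene into the group, so it describes the choice and supports nothing further. The WT replicates were very close together, with a coefficient of variation of 0.529%, while that of the KO replicates was 11.2%. Only 0.729% of genes of at least 10 CPM had a WT variation that low, and 84.3% had a KO variation at or below that of Vma21. The call was lost without WT replicate 1 (adjusted p = 0.053), at an equal log2 fold change of -1.06. Over all alternatives the adjusted p ranged from 3.1e-25 to 0.10. Of its 50-base transcript sequences 2.45% also occur in the predicted gene Gm14845, which had 2 to 10 counts.

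Genes near Vma21 on chromosome X gave no call. Of 13 other genes starting within 1 Mb, 8 were tested and none passed with edgeR or with DESeq2 (0.0677% and 3.57% of all genes did). None had an unadjusted edgeR p under 0.05 (10.4% of all genes tested did). At those shares few or none of 8 genes would pass. Upstream, the nearest tested gene was the pseudogene Rpl30-ps10, at 9.97 ± 0.569 CPM (SD, n = 3) in WT and 8.57 ± 2.40 CPM in KO libraries (edgeR adjusted p = 0.778). Downstream, Prrg3 lay at 0 to 0.216 CPM in WT and 0 to 0.508 CPM in KO libraries (edgeR adjusted p = 0.796). Prrg3 and Gabre (0 to 26 counts) were the only 2 tested genes on that side, and DESeq2 gave neither an adjusted p. The phosphatase gene Mtm1, the most abundant of the 8 and named after its values were seen, was at 95.3 ± 4.48 and 104 ± 3.63 CPM (higher in each KO library, edgeR adjusted p = 0.499). Mamld1, named likewise, was also higher in each KO library, at 5.50 and 6.17 CPM (edgeR adjusted p = 0.689). Of all genes tested 8.68% had groups apart in that direction.

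The other assembly factors gave no call. Tmem199 was at 33.3, 40.5 and 37.0 CPM in WT and 37.0, 38.6 and 37.4 CPM in KO libraries, with groups that overlapped (log2 fold change 0.03, 95% interval -0.16 to 0.21, edgeR adjusted p = 0.938). Ccdc115 fell into a high and a low level within each group. It was at 22.1, 40.9 and 23.8 CPM in WT and 26.9, 22.8 and 41.0 CPM in KO libraries, high in WT replicate 2 and KO replicate 3. Its fold change was therefore poorly bounded (log2 fold change 0.06, 95% interval -0.61 to 0.74, edgeR adjusted p = 0.965). Of its 50-base sequences 15.5% occur in other genes, most of them in Gm7774.

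**Figure D2:**
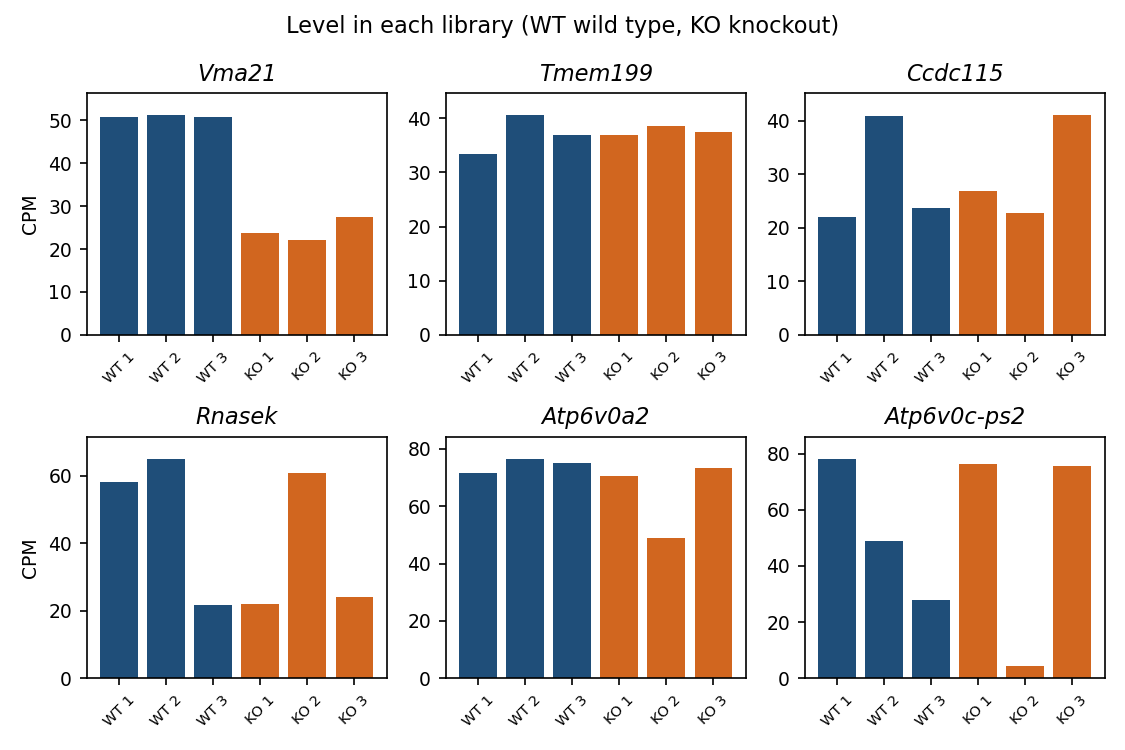
CPM in each of the 3 WT and 3 KO libraries for the 3 assembly factor genes, for Rnasek and Atp6v0a2, and for the pseudogene Atp6v0c-ps2, with 1 bar per library and vertical axes from 0. Vma21 separates the groups (50.7 to 51.2 against 22.0 to 27.4 CPM), while Ccdc115, Rnasek and the pseudogene vary within each group.

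Accessory V0 proteins gave a mixed picture of reliability. Rnasek, a small membrane protein bound to V0, was at 58.2, 65.0 and 21.7 CPM in WT and 22.0, 60.9 and 23.9 CPM in KO libraries. It was high in WT replicates 1 and 2 and in KO replicate 2, and low in the other 3 libraries, with edgeR adjusted p = 0.823. Its coefficient of variation was 48.2% in WT and 61.6% in KO libraries, which 99.2% and 99.5% of genes of at least 10 CPM did not exceed. The longer gene Gm21988 on the same strand shares 599 of the 885 exonic bases of Rnasek and 62.4% of its 50-base sequences, so its counts are uncertain. Gm21988 was at 6.47 to 10.6 CPM, and the sum of both genes kept the high and low levels (67.5, 74.3 and 31.6 CPM in WT and 28.4, 71.5 and 32.2 CPM in KO libraries).

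Atp6ap1 (Ac45), an accessory glycoprotein that helps V0 assemble, was at 273, 266 and 259.9 CPM in WT and 287, 277 and 296 CPM in KO libraries. The groups did not overlap, and the difference did not pass (log2 fold change 0.11, SE 0.0409, edgeR adjusted p = 0.423). Atp6ap2, the prorenin receptor, was at 310.1, 294 and 287 CPM in WT and 297.9, 298 and 293 CPM in KO libraries (edgeR adjusted p = 0.992).

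Among V0 subunits no gene passed with edgeR over all genes. Atp6v0a1, an isoform of the large subunit a that guides the pump to its compartment, was at 258, 270.1 and 274 CPM in WT and 296, 301 and 327 CPM in KO libraries. The groups did not overlap (log2 fold change 0.20, SE 0.0497, edgeR adjusted p = 0.195). Atp6v0b, a minor subunit of the ring, was at 329, 338.04 and 337.96 CPM in WT and 307, 286 and 301 CPM in KO libraries, again without overlap but lower (log2 fold change -0.17, SE 0.0392, edgeR adjusted p = 0.171). It overlaps the antisense gene Gm12841 by 243 exonic bases, and no source used here says whether counting used strand. With DESeq2 on the same counts both passed (adjusted p = 0.021 and 0.029).

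The remaining V0 genes differed less or varied more. Tcirg1, the subunit a isoform of lysosomes and of the osteoclast border, was at 709 ± 11.5 and 694 ± 11.1 CPM (SD, n = 3 each, edgeR adjusted p = 0.775). Atp6v0d2 was at 742, 796 and 818 CPM in WT and 773, 773 and 775 CPM in KO libraries (edgeR adjusted p = 0.901). Atp6v0d1 was at 351 ± 11.6 and 362 ± 9.48 CPM (SD, n = 3 each, edgeR adjusted p = 0.781). Atp6v0e, a small membrane subunit, was at 173, 213 and 209 CPM in WT and 220.0, 219.7 and 216 CPM in KO libraries, with WT replicate 1 as the low value (edgeR adjusted p = 0.609).

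Single libraries stood out in the last pair of V0 genes. Atp6v0a2, the Golgi isoform of subunit a, was at 71.6, 76.5 and 75.1 CPM in WT and 70.4, 48.8 and 73.5 CPM in KO libraries (edgeR adjusted p = 0.672). KO replicate 2 was the low value, and 8.35% of the 50-base sequences of the gene occur in an antisense transcript. Atp6v0c was at 872, 811 and 767 CPM in WT and 1028, 836 and 822 CPM in KO libraries (edgeR adjusted p = 0.675), with KO replicate 1 as the high value. Its processed copy Atp6v0c-ps2 holds 10.7% of its 50-base sequences and moved between 4.44 CPM in KO replicate 2 and 78.1 CPM in WT replicate 1.

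Apart from the rare Atp6v1g2, tested V1 subunits had ratios of KO to WT means between 0.922 and 1.09, and none passed with edgeR. Atp6v1a, the catalytic subunit, was at 1200.5, 1225 and 1238 CPM in WT and 1318, 1316 and 1345 CPM in KO libraries. The groups did not overlap, and the mean ratio of KO to WT was 1.09 (log2 fold change 0.12, SE 0.0236, edgeR adjusted p = 0.129). Atp6v1c1, which clamps V1 to V0, was at 461, 503 and 498 CPM in WT and 549, 503 and 541 CPM in KO libraries, where the groups touched (502.73 in WT replicate 2 and 502.91 in KO replicate 2, edgeR adjusted p = 0.434). Atp6v1f, a subunit of the central rotor, was at 124, 134 and 129.6 CPM in WT and 119.05, 118.8 and 119.6 CPM in KO libraries, lower without overlap (log2 fold change -0.12, edgeR adjusted p = 0.409). Of its 50-base sequences 11.2% occur in another annotated gene.

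The other V1 genes had overlapping groups. Atp6v1b2 was at 955 ± 27.2 CPM in WT and 984 ± 13.1 CPM in KO libraries (SD, n = 3 each, edgeR adjusted p = 0.669). The peripheral stalk genes Atp6v1e1 (463 and 458 CPM) and Atp6v1g1 (373 ± 6.30 and 376 ± 12.5 CPM) had edgeR adjusted p of 0.926 and 0.941. Of the 50-base sequences of Atp6v1g1 19.2% occur in predicted genes, most in Gm13453. Atp6v1d, the rotor shaft (175 ± 4.08 and 174 ± 4.29 CPM), and Atp6v1h, a regulatory subunit (325 ± 5.08 and 326 ± 6.18 CPM), had edgeR adjusted p of 0.942 and 0.976. For Atp6v1h the 95% interval of the log2 fold change was -0.07 to 0.09.

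Of the 3 RAVE genes of the group, Wdr7 and Dmxl2 were higher in every KO than in every WT library without passing edgeR. Of all genes tested 8.68% were higher in that way. Wdr7 was at 124.7, 124.9 and 122 CPM in WT and 139.9, 136 and 143 CPM in KO libraries (log2 fold change 0.18, SE 0.0407, edgeR adjusted p = 0.171). DESeq2 called it (adjusted p = 0.021). On the other strand 117 of its exonic bases overlap Txnl1 and 134 overlap the antisense gene AC102132.1. Dmxl2 was at 163, 147 and 151 CPM in WT and 173, 172 and 173 CPM in KO libraries, without overlap (log2 fold change 0.17, SE 0.0494, edgeR adjusted p = 0.285). Dmxl1 was at 139.51, 119.6 and 144 CPM in WT and 138, 137 and 139.51 CPM in KO libraries, with the low value in WT replicate 2 (edgeR adjusted p = 0.900). Rogdi, a partner outside the group named after its values were seen, had overlapping groups (log2 fold change -0.19, edgeR adjusted p = 0.839).

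**Figure D3:**
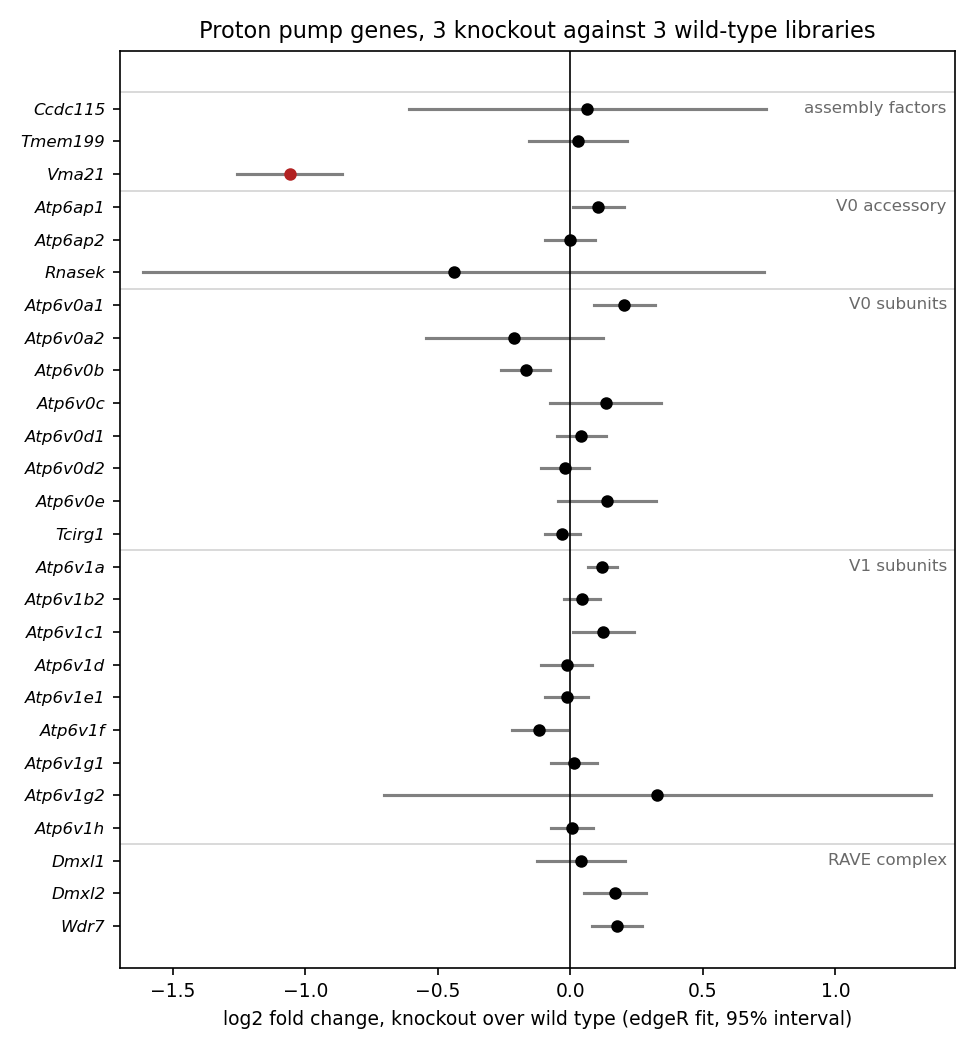
Fitted log2 fold change of KO over WT for the 26 tested genes, with the 95% interval from the edgeR fit, ordered by role in the pump; the red point passed the adjusted threshold and black points did not. Vma21 lies at -1.06, and the other 25 genes lie between -0.44 (Rnasek) and 0.33 (Atp6v1g2), both with wide intervals.

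The median log2 fold change over the 26 genes was 0.034 against -0.0019 over all genes tested, and the median absolute value was 0.111 against 0.132. Among genes of at least 10 CPM the order was the other way. The median absolute log2 fold change was 0.106 for the 25 pump genes and 0.0748 for all 8226 genes, again not matched in level. In the fit 16 genes lay above 0 and 10 below, where 49.5% of all genes lay above. Without Vma21 the median was 0.040. The 26 exclude the rarest paralogs and were counted after the filter.

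Summed over subunits, pump RNA overlapped between genotypes. V1 subunits added up to 975, 1000.1 and 985 FPKM in WT and 1034, 999.9 and 1013 FPKM in KO libraries, a ratio of means of 1.03. V0 subunits added up to 1013, 1036 and 1035.5 FPKM in WT and 1084, 1032 and 1031 FPKM in KO libraries, a ratio of means of 1.02. Both sums overlapped between groups, and so did the ratio of V1 to V0 (0.951 to 0.966 in WT and 0.955 to 0.982 in KO libraries).

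Shares of isoforms within subunits a and d differed slightly between groups. Shares of a subunit add up to a whole, so a higher share of 1 isoform lowers the others. Of the FPKM of subunit a, Atp6v0a1 made up 19.5%, 19.7% and 20.3% in WT and 22.0%, 22.2% and 23.7% in KO libraries. Tcirg1 made up 75.2%, 74.9% and 74.3% and then 72.8%, 74.29% and 71.1%, lower in each KO library by a margin that was narrow for KO replicate 2. The Atp6v0a2 share was 5.27% to 5.43% in WT and 3.51% to 5.18% in KO libraries, lowest in KO replicate 2. Without that library its difference of KO minus WT went from -0.77 to -0.22 percentage points. The Atp6v0d2 share of subunit d was 59.2%, 59.5% and 60.1% in WT and 58.9%, 57.8% and 58.9% in KO libraries. These shares were computed over genes chosen with results known and were given no test. Scaled to longest transcripts the Atp6v0a1 share was 20.6% ± 0.432 in WT and 23.5% ± 0.945 in KO libraries (SD, n = 3 each).

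**Figure D4:**
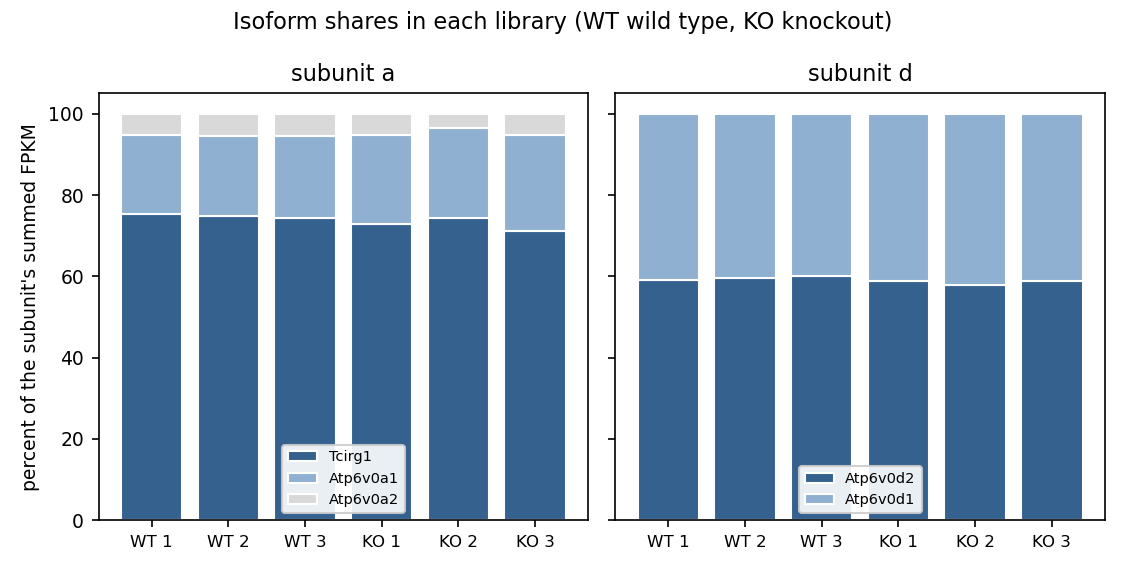
Stacked bars of each isoform's percent of the summed FPKM of subunit a (left) and subunit d (right) in each of the 6 libraries, on an axis from 0. Tcirg1 holds 71.1% to 75.2% of subunit a, and the Atp6v0a1 segment is 19.5% to 20.3% in WT and 22.0% to 23.7% in KO libraries.

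Osteoclast and giant cell markers were set beside Atp6v0d2 and Tcirg1, which those cells also express. Their summed level was 245 to 264 CPM in WT and 265 to 282 CPM in KO libraries, without overlap but by a narrow margin, and edgeR called none of the 4 tested. Ctsk, a collagen-cutting protease, was at 139.7 ± 3.92 and 157 ± 5.91 CPM (SD, n = 3 each, edgeR adjusted p = 0.249), while the protease gene Mmp9 was lower, at 6.73 ± 0.415 and 4.14 ± 0.727 CPM (edgeR adjusted p = 0.169, DESeq2 adjusted p = 0.012). Calcr, the calcitonin receptor, and Ocstamp, a cell fusion gene, were near 0, with 0 to 13 and 0 to 25 counts. The part of these markers in the Atp6v0d2 and Tcirg1 levels was not tested.

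Genes that regulate or work beside the pump gave no call with edgeR. Of the TFEB family and folliculin complex 7 of 7 were tested, 1 had an unadjusted edgeR p under 0.05 (10.4% of all genes tested did) and none passed with DESeq2 (3.57% of all genes did), at a median log2 fold change of 0.02. Fnip2, the folliculin partner and the most abundant of them, was at 785, 766 and 817 CPM in WT and 847, 849 and 874 CPM in KO libraries (edgeR adjusted p = 0.251). Of Ragulator, the Rag GTPases and mTORC1, which sense amino acids at the lysosome together with the pump, all 17 were tested. An unadjusted edgeR p under 0.05 was found for 2 of them, near the 10.4% of all genes tested, and none passed with DESeq2 (median log2 fold change 0.01). DESeq2 gave no adjusted p to the rare Rragb, named after its values were seen. Rragb had 27, 26 and 34 counts in WT and 27, 6 and 4 counts in KO libraries (log2 fold change -1.23, edgeR adjusted p = 0.640). Rragc, the most abundant, was at 341 ± 10.4 and 337 ± 10.5 CPM (SD, n = 3 each, edgeR adjusted p = 0.913).

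Of 16 endolysosomal channels, exchangers and transporters, 3 had an unadjusted edgeR p under 0.05, against 10.4% of all genes tested, and none passed (median log2 fold change 0.0087). DESeq2 called 2, against 3.57% of all genes, and both are named here after their values were seen. Clcn7, the lysosomal chloride-proton exchanger, was at 1172, 1095 and 1102 CPM in WT and 982, 1031 and 979 CPM in KO libraries (DESeq2 adjusted p = 0.028, edgeR adjusted p = 0.144). Mcoln3, a lysosomal cation channel, was at 48.6, 51.1 and 51.0 CPM in WT and 57.8, 60.4 and 59.1 CPM in KO libraries (DESeq2 adjusted p = 0.011, edgeR adjusted p = 0.149). Slc11a1, the most abundant of the list with Clcn7 close to it and a metal ion transporter of phagosomes, was at 1122 ± 21.7 and 1125 ± 22.1 CPM (SD, n = 3 each, edgeR adjusted p = 0.976). Of the TLDc proteins and Rogdi, which bind the pump or RAVE, 4 were tested, with 0 at an unadjusted edgeR p under 0.05 and 0 called by DESeq2, and Oxr1 was at 87.0 ± 3.32 and 91.7 ± 5.28 CPM (SD, n = 3 each, edgeR adjusted p = 0.721).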

How the data were processed

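Poly(A) RNA of 6 mouse libraries was sequenced as read pairs, per the labels' protocols. The submitters' processing notes name HISAT2 2.0. How reads were counted, against which build and annotation and with which strand setting, is not given in the sources used here. For each gene and library the authors deposited a whole-number count and an FPKM value, per the file headers. Left unused were 12 columns whose names match no sample. All 6 libraries entered 1 edgeR 4.0.16 quasi-likelihood fit (R 4.3.3, filterByExpr, TMM, genotype as the only term, two-sided), adjusted by Benjamini-Hochberg over all genes tested and called at 0.05. CPM uses TMM-scaled library sizes, and the SE is the log2 fold change divided by the root of F. Between 68053008 and 79090732 counts per library make 1 count worth 0.0126 to 0.0147 CPM. Coordinates of 26 of the 28 genes match GENCODE M21 (GRCm38), which also gave exonic overlap and shared 50-base sequences. DESeq2 1.42.0, limma 3.58.1 on log2(FPKM + 1) for genes at 1 FPKM or more in 3 libraries, no filter, RLE factors, a replicate block and leaving out each library were alternatives. Named were all genes of the group, Dclk1, called or most abundant members of each context list and the tested neighbours nearest to Vma21. Genes and lists were chosen with earlier results of these data known.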

Additional observations from a re-analysis of the deposited data

How the results depend on the processing

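The fitted directions of the 26 genes were compared over no filter, RLE factors, DESeq2, limma on FPKM with a pseudocount of 1 or 0.1, a replicate block and leaving out each library. Genes called over the whole table numbered 11, against 7 without a filter, 455 with DESeq2, 3 with the replicate block and 7 to 35 without single libraries. Genes of the group called numbered 1, against 4 with DESeq2, 0 with the replicate block and 0 to 1 without single libraries. The cause was not tested. Vma21 kept a log2 fold change of -1.15 to -0.85 throughout, with adjusted p = 0.10 in the block and 0.053 without WT replicate 1. The block rests on a number alone: deviations of same-numbered libraries correlated at 0.0059 to 0.051, and 4 of 6 libraries correlated best with their own number. The fitted sign changed under some alternative for 8 of the 26 genes, all uncalled and at most 0.0633 from 0 in the reported fit: Ccdc115 (to -0.22 without KO replicate 3), Tmem199, Dmxl1 (to -0.037 without WT replicate 2), Atp6ap2, Atp6v0d2, Atp6v1d, Atp6v1g1 and Atp6v1h. It did not change for the other 18. Sums and isoform shares moved by less than the replicate spread. The setting with a longest-transcript length was chosen after seeing the data. With 3 libraries per group, Rnasek, Ccdc115 and Atp6v1g2 had intervals too wide to show a change of the size of most other genes.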
